A study of Homo sapiens with 6 samples.

Results

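The type I interferon signal is carried by a short chain of proteins. Interferon alpha or beta joins the receptor chains IFNAR1 and IFNAR2, the kinases TYK2 and JAK1 bound to those chains phosphorylate STAT proteins, and STAT2 enters the nucleus with IRF9 as part of the complex ISGF3, which binds the interferon-stimulated response element (ISRE) of antiviral genes. JAK2 serves the interferon gamma receptor and several cytokine receptors, and STAT3 is the main STAT of the interleukin-6 family, which also responds to type I interferon but is no subunit of ISGF3. The 8 genes described here are IRF9, STAT2, STAT3, IFNAR1, IFNAR2, JAK1, JAK2 and TYK2, taken by symbol from a table of 57820 genes.

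RNA was sequenced from M14, a human melanoma cell line that carries a doxycycline-inducible STAG2 shRNA and was grown in medium with puromycin. STAG2 is a subunit of cohesin, the ring complex that shapes DNA loops. Cells were grown for 5 days without doxycycline (WT, 3 libraries) or with it (STAG2-KD, 3 libraries). Every library therefore comes from shRNA-carrying cells of a single line. In these libraries the effects of doxycycline itself, of expressing the shRNA and of the knockdown cannot be told apart. The comparison asks how loss of STAG2 changes the expression of the interferon pathway.

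The libraries held between 24895998 and 35181733 expected counts. STAG2 itself was at 66.5, 34.8 and 28.8 CPM (counts scaled to a common library size, with TMM factors) in WT and at 16.0, 7.31 and 6.70 CPM in STAG2-KD, without overlap (log2 difference −2.12, SE 0.43, edgeR adjusted p = 0.0342). WT replicate 1 stood apart, with 5.07% of its counts from mitochondrial genes against 2.12% to 2.94% in the others. It also had the fewest counts but the most genes above 0, 20646 against 16028 to 17995. The 7 melanocyte markers were all detected, with a summed level of 1846 to 6223 CPM in WT and 1188 to 2572 CPM in STAG2-KD. Replicate 1 had the highest sum in both groups. The 5 leukocyte markers summed to at most 1.83 CPM, with CD3E at 0 in every library, and 4 fibroblast and endothelial markers to at most 3.80 CPM. Of the melanocyte markers 1, S100B, fell (log2 difference −1.35, edgeR adjusted p = 0.00949), where 0.839% of all tested genes did. In the fit with the replicate block 5 fell, where 4.42% of all tested genes did. The part of this shift of melanocyte markers in the values below was not tested.

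IRF9 and STAT2, the ISGF3 genes among the members, rose and no receptor or kinase gene passed the test. All 8 members passed the filter on low counts, and 2 of them (IRF9 and STAT2) were higher in STAG2-KD at an adjusted p under 0.05, where 1.75% of the 15605 tested genes were called higher. None of the 8 was called lower, where 0.839% of the tested genes were (edgeR, and likewise DESeq2 and limma-voom, with 0 members lower at an unadjusted p under 0.05 in edgeR). IRF9 and STAT2 were also the 2 members whose STAG2-KD libraries all lay above their WT libraries, as did those of 11.8% of tested genes. No member lay wholly below its WT libraries, as 10.5% of tested genes did. The median log2 fold change was 0.25 over the 8 members and −0.03 over all tested genes.

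The promoters of IRF9 and STAT2, the genes that moved together, are shown first. The sequences are RefSeq windows on GRCh38.p14, each covering the 250 bases before the annotated start, read 5′ to 3′ on the strand of the gene. Capitals mark a match to TTCNNNGAA, the gamma-activated site (GAS) that STAT dimers bind, a pattern that reads the same on both strands.
IRF9 (chr14:24161015-24161264, plus strand): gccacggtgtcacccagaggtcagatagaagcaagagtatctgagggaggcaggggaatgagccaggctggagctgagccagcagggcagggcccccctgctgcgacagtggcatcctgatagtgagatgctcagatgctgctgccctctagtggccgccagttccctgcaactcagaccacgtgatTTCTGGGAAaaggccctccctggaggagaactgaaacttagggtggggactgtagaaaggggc
STAT2 (chr12:56360108-56360357, minus strand): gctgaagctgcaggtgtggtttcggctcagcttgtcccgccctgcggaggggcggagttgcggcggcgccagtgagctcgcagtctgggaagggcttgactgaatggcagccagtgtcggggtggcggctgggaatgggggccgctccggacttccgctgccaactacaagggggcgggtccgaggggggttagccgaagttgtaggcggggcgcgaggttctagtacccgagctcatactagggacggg
The GAS match of IRF9, TTCTGGGAA, lies from 63 to 55 bases before the start. The STAT2 stretch holds no such match. The RefSeq table had 13 windows of 300 bases (250 before and 50 after a start) for 7 of the members, since several have more than 1 start. Only the IRF9 window among these held the GAS letters, which occur in 7.66% of all 35116 windows. The ISRE, searched on both strands as a pair of GAAA half-sites 2 bases apart, was in 0 of the 13 windows and in 3.57% of all windows. A match of letters is a description and does not show binding.

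IRF9 supplies the DNA contact of ISGF3. Its locus (ENSG00000213928) spans 24630443 to 24637252 on chromosome 14 of GRCh37, plus strand, with 9 exons in the canonical transcript. WT libraries gave 19.0, 21.5 and 19.9 CPM, and STAG2-KD libraries 130.3, 123 and 128 CPM. The groups were far apart, and the spread within them was the smallest of the 8 members in STAG2-KD, with a coefficient of variation of 6.34% in WT and 2.85% in STAG2-KD. In the edgeR fit IRF9 rose by 2.66 on the log2 scale (SE 0.18, 95% interval 2.25 to 3.07, adjusted p = 6.49e-05 from edgeR), a 6.31-fold rise. By p-value it ranked 17 among the tested genes and by the size of the rise 220, at percentile 98.6 of all log2 fold changes. Between same-numbered libraries the log2 differences were 2.77, 2.51 and 2.68.

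A read-through gene, ENSG00000259529, shares 1544 exon bases with IRF9 on the same strand, so that the authors' counting divided reads between them. Its share of the summed counts was 20.6% in WT and 5.20% in STAG2-KD. Its own level was 5.46 ± 3.43 CPM in WT and 6.997 ± 1.44 CPM in STAG2-KD (SD, n = 3 in each). With the counts of both genes summed, the log2 fold change was 2.39 (SE 0.19, adjusted p = 0.000177 from edgeR), a smaller rise that kept its call.

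STAT2 carries the transactivation domain of ISGF3. Its locus (ENSG00000170581) spans 56735381 to 56753987 on chromosome 12 of GRCh37, minus strand. WT libraries gave 112, 94.4 and 68.1 CPM, and STAG2-KD libraries 322.5, 381 and 351 CPM. The lowest STAG2-KD library lay well above the highest WT library, although replicate 1 was the highest of the WT libraries and the lowest of the STAG2-KD libraries. STAT2 rose by 1.94 on the log2 scale (SE 0.23, 95% interval 1.43 to 2.45, adjusted p = 0.00184 from edgeR), a 3.84-fold rise at percentile 97.4 of all tested genes. Between same-numbered libraries it was 1.52, 2.01 and 2.36. None of the counted genes shares exon bases with STAT2 on either strand.

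For both genes the exact permutation test on mean CPM gave p = 0.1 (two-sided), the smallest value that 3 libraries against 3 allow. The call of IRF9 and that of STAT2 held with each library left out in turn, with an adjusted p from edgeR of at most 0.00173 for IRF9 and at most 0.0180 for STAT2. Without both libraries numbered 1, an alternative chosen after the data had been seen, the same 2 members were called.

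**Figure D1:**
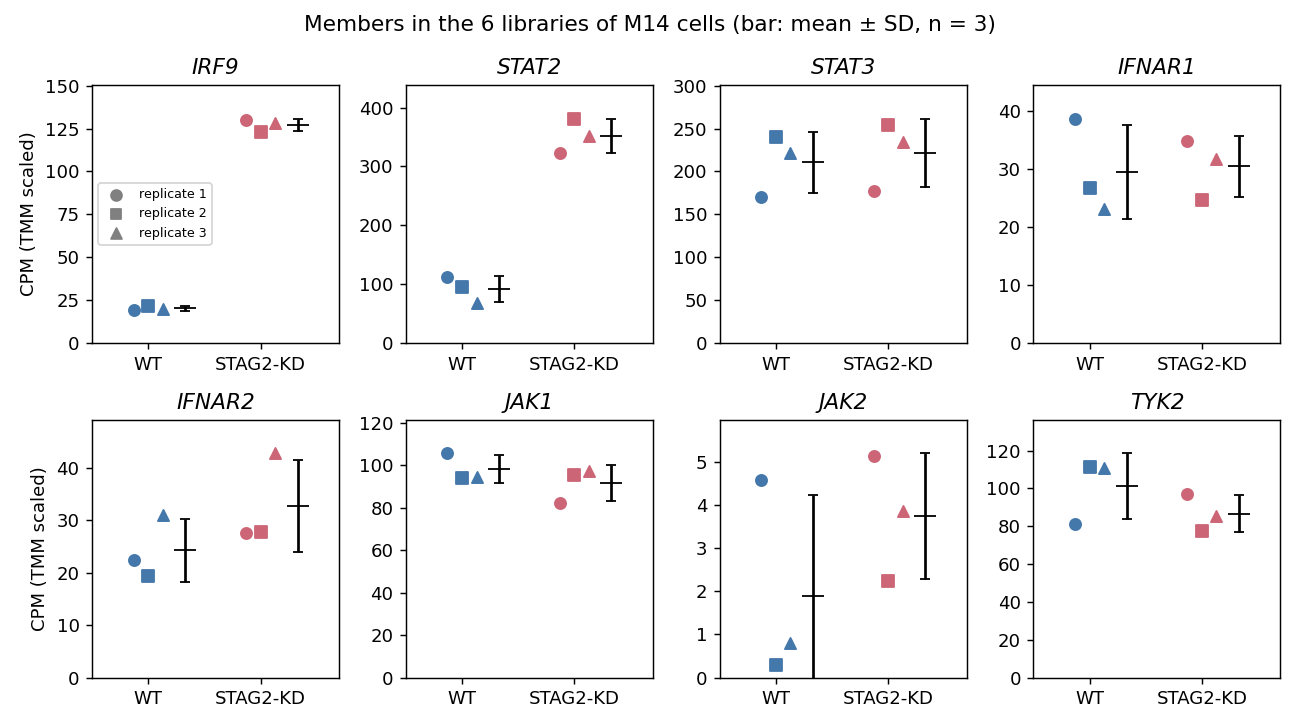
CPM after TMM scaling (y axis, from 0) of each member in the 3 WT (blue) and 3 STAG2-KD (red) libraries, with the mean and SD of each group in black and a symbol for each replicate number. IRF9 rises from about 20.1 to 127 CPM and STAT2 from 91.7 to 352 CPM without overlap, while the groups overlap for the other 6; the lower SD bar of JAK2 in WT runs below 0 and is clipped.

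STAT3 was the most abundant member per length in WT and did not follow STAT2. The gene (ENSG00000168610, chromosome 17 of GRCh37, 40465342 to 40540558, minus strand) was at 170.3, 239.9 and 221 CPM in WT and at 178, 254 and 234 CPM in STAG2-KD. In both groups replicate 1 was lowest and replicate 2 highest, and the groups overlapped almost entirely. Their difference was 0.08 on the log2 scale (95% interval −0.41 to 0.56, adjusted p = 0.926 from edgeR). With the replicate block the interval was −0.23 to 0.38. STAT3 lies beside STAT5A and STAT5B, a pair of STATs used by growth hormone and interleukin-2 family receptors, which span 40439565 to 40463961 and 40351194 to 40440651 on the same chromosome. On the log2 scale STAT5A differed by 0.05 and STAT5B by 0.23 (edgeR adjusted p = 0.963 and 0.697).

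The receptor chains differed in the direction of their pairs. IFNAR1, the chain that binds TYK2 (ENSG00000142166, chromosome 21 of GRCh37, 34696692 to 34732170, plus strand), was at 38.6, 26.7 and 23.1 CPM in WT and at 34.9, 24.7 and 31.7 CPM in STAG2-KD. Its highest library was a WT library and its lowest as well. On the log2 scale the difference was 0.04 (95% interval −0.54 to 0.63, adjusted p = 0.969 from edgeR), and the same-numbered libraries gave −0.15, −0.11 and 0.45.

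IFNAR2, the chain that binds JAK1 (ENSG00000159110, chromosome 21, 34577587 to 34637980, plus strand), was at 22.5, 19.3 and 31.0 CPM in WT and at 27.6, 27.7 and 42.8 CPM in STAG2-KD. The groups overlapped because WT replicate 3 lay above STAG2-KD replicates 1 and 2, but STAG2-KD was higher in 3 of 3 same-numbered pairs, by 0.29, 0.52 and 0.46 on the log2 scale. The log2 fold change was 0.43 (SE 0.27, 95% interval −0.18 to 1.05, adjusted p = 0.552 from edgeR). With the replicate block it was 0.43 (SE 0.18, 95% interval 0.02 to 0.83, adjusted p = 0.191 from edgeR), still short of the threshold. IL10RB-AS1, on the opposite strand, shares 1803 exon bases with IFNAR2, and the strand setting of the counting is not given in the sources used here. It was listed at 163, 234 and 112 expected counts in WT and at 0, 156 and 0 in STAG2-KD. The read-through gene ENSG00000249624 made up on average 0.613% of the summed counts of itself and IFNAR2 in WT. All of this came from WT replicate 3, where it had 15.96 expected counts.

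IFNAR1 and IFNAR2 sit in a cluster on chromosome 21 with IL10RB, a chain of the interleukin-10 and interferon lambda receptors (34638672 to 34683725), and IFNGR2, a chain of the interferon gamma receptor (34775719 to 34851655). IL10RB averaged 37.6 ± 5.00 CPM in WT against 48.8 ± 7.69 CPM in STAG2-KD, a log2 difference of 0.37 (edgeR adjusted p = 0.482). IFNGR2 averaged 109.6 ± 30.6 CPM in WT against 125 ± 29.1 CPM in STAG2-KD, a log2 difference of 0.19 (edgeR adjusted p = 0.833, SD, n = 3 throughout). None of the 4 receptor genes of the cluster passed the test.

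JAK1, the kinase shared by the type I, II and III interferon receptors (ENSG00000162434, chromosome 1 of GRCh37, 65298906 to 65533437, minus strand), had one of the narrowest ranges. It was at 105.5, 93.9 and 94.6 CPM in WT and at 82.1, 95.5 and 97.3 CPM in STAG2-KD. The highest value was WT replicate 1 and the lowest STAG2-KD replicate 1, with the other 4 libraries between. Genes that share exon bases with JAK1 on its own strand held at most 2.69 expected counts in a library. For JAK1 the log2 fold change was −0.10 (95% interval −0.49 to 0.30, adjusted p = 0.877 from edgeR).

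TYK2, the partner kinase of JAK1 at the type I receptor (ENSG00000105397, chromosome 19, 10461209 to 10491284, minus strand), was at 81.1, 111 and 111 CPM in WT and at 96.8, 77.4 and 85.7 CPM in STAG2-KD. The STAG2-KD library was lower in pairs 2 and 3 and higher in pair 1. For TYK2 the log2 fold change was −0.22 (95% interval −0.67 to 0.23, adjusted p = 0.714 from edgeR).

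JAK2 was scarce and varied most. The gene (ENSG00000096968, chromosome 9, 4984390 to 5129948, plus strand) had 123, 10 and 22 expected counts in the WT libraries and 165, 66 and 126 in the STAG2-KD libraries. These were 4.58, 0.290 and 0.801 CPM in WT and 5.13, 2.23 and 3.86 CPM in STAG2-KD, where a floor of 3 counts was between 0.0870 and 0.112 CPM. WT replicate 1 lay above STAG2-KD replicates 2 and 3, and the coefficient of variation in WT was 124%. The log2 fold change was 0.99 (SE 0.92, 95% interval −1.08 to 3.05, adjusted p = 0.728 from edgeR). This became 2.77 without WT replicate 1 (adjusted p = 0.127 from edgeR), 0.47 without WT replicate 2 (adjusted p = 0.923 from edgeR) and 1.77 with the replicate block (95% interval 0.06 to 3.47, adjusted p = 0.200 from edgeR), so the size of this difference rested on WT replicates 1 and 2 and no version passed.

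**Figure D2:**
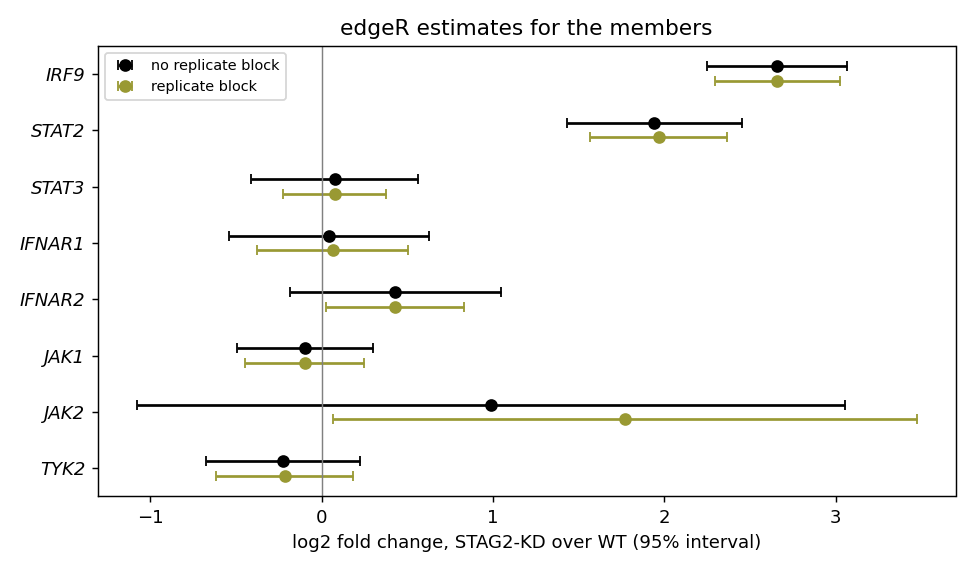
Log2 fold change of STAG2-KD over WT (x axis) for each member from edgeR, with 95% intervals, without (black) and with (olive) the replicate block. IRF9 at 2.66 and STAT2 at 1.94 lie clear of 0, the intervals of STAT3, IFNAR1, JAK1 and TYK2 span 0 in both fits, and that of JAK2 is the widest.

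Levels of different genes were compared per length, as CPM per kb of the canonical GENCODE transcript. In WT the order was STAT3 at 42.8, TYK2 at 23.8, STAT2 at 20.8, JAK1 at 19.2, IRF9 at 12.4, IFNAR2 at 5.95, IFNAR1 at 4.85 and JAK2 at 0.269 CPM per kb. Libraries of TYK2, STAT2 and JAK1 overlapped, as did those of the receptor chains, so their order is not resolved. The gaps from STAT3 to TYK2, from JAK1 to IRF9 and from IRF9 to IFNAR2 exceeded the range of the libraries, and JAK2 lay below all others.

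In STAG2-KD the order began with STAT2 at 79.8 and IRF9 at 78.3 CPM per kb, whose libraries overlapped, followed by STAT3 at 45.1, TYK2 at 20.4, JAK1 at 18.0, IFNAR2 at 8.02, IFNAR1 at 5.00 and JAK2 at 0.533 CPM per kb. The libraries of TYK2 and JAK1 overlapped here too, while every IFNAR2 library lay above every IFNAR1 library. IRF9 thus moved from place 5 to place 2 and STAT2 from place 3 to place 1. Of the summed per-length level of the 8 members, IRF9 made up 9.52% in WT and 30.7% in STAG2-KD, and STAT2 16.0% and 31.3%. With all annotated exons merged as the length, IRF9 stood at place 3 in STAG2-KD behind STAT3, and IFNAR1 and IFNAR2 changed places in WT. The STAG2-KD libraries of IFNAR2 and IFNAR1 overlapped with that length.

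**Figure D3:**
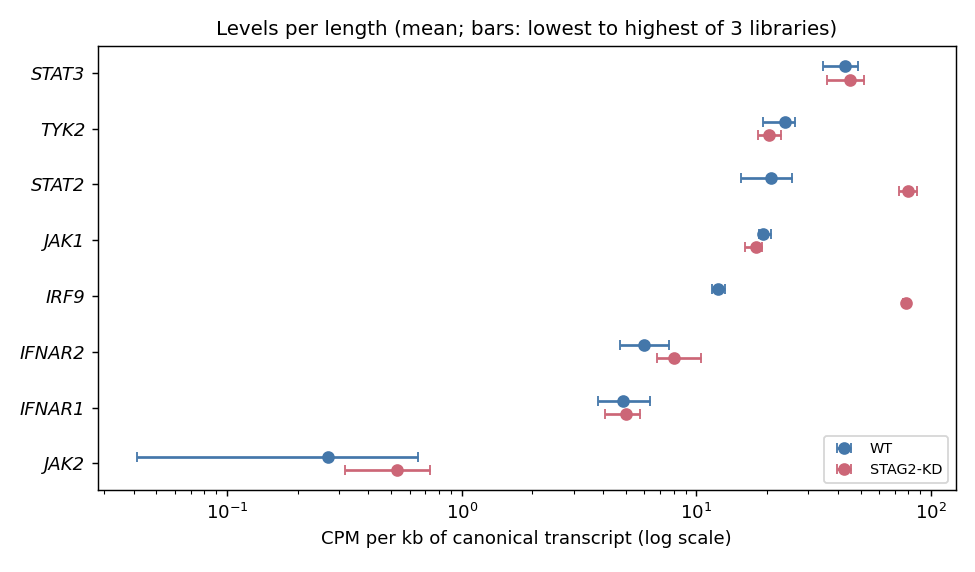
Mean level per length (x axis, log scale, CPM per kb of canonical transcript) in WT (blue) and STAG2-KD (red), with bars from the lowest to the highest of the 3 libraries. IRF9 and STAT2 join at 78.3 and 79.8 in STAG2-KD, from 12.4 and 20.8 in WT, and JAK2 is lowest in both groups.

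Ratios of members within a library do not depend on how libraries are scaled. The ratio of IRF9 to STAT2 expected counts was 0.169, 0.228 and 0.292 in the WT libraries and 0.404, 0.323 and 0.365 in the STAG2-KD libraries. The groups did not overlap, and the ratio differed by 0.69 on the log2 scale (two-sided p = 0.1 by exact permutation, which 3 libraries against 3 cannot go below, and 0.25 adjusted over the 5 ratios), so a larger rise of IRF9 than of STAT2 was not established. The same-numbered pairs gave 1.26, 0.50 and 0.32, all in that direction. These IRF9 counts leave out the read-through gene ENSG00000259529, which held 20.6% of the summed counts in WT and 5.20% in STAG2-KD. With its counts added to IRF9, the ratio of WT replicate 3 lay within the STAG2-KD range and pair 3 turned. The lack of overlap thus rested on how reads were divided between these genes. The difference was 0.49 without WT replicate 1 and 0.41 without both libraries numbered 1.

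The ratio of STAT3 to STAT2 was 1.51, 2.54 and 3.25 in WT and 0.551, 0.667 and 0.666 in STAG2-KD. STAT3 thus had more counts than STAT2 in 3 of 3 WT libraries and fewer in 3 of 3 STAG2-KD libraries, a log2 difference of −1.89 (exact permutation test, two-sided, p = 0.1, adjusted 0.25). The remaining ratios overlapped between the groups. IFNAR2 to IFNAR1 was 0.882 ± 0.403 in WT and 1.09 ± 0.281 in STAG2-KD, and TYK2 to JAK1 was 1.04 ± 0.237 and 0.957 ± 0.196. JAK2 to JAK1 was 0.0183 ± 0.0219 in WT and 0.0419 ± 0.0197 in STAG2-KD (SD, n = 3 in each). Their exact permutation p-values were 0.4, 0.9 and 0.3.

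**Figure D4:**
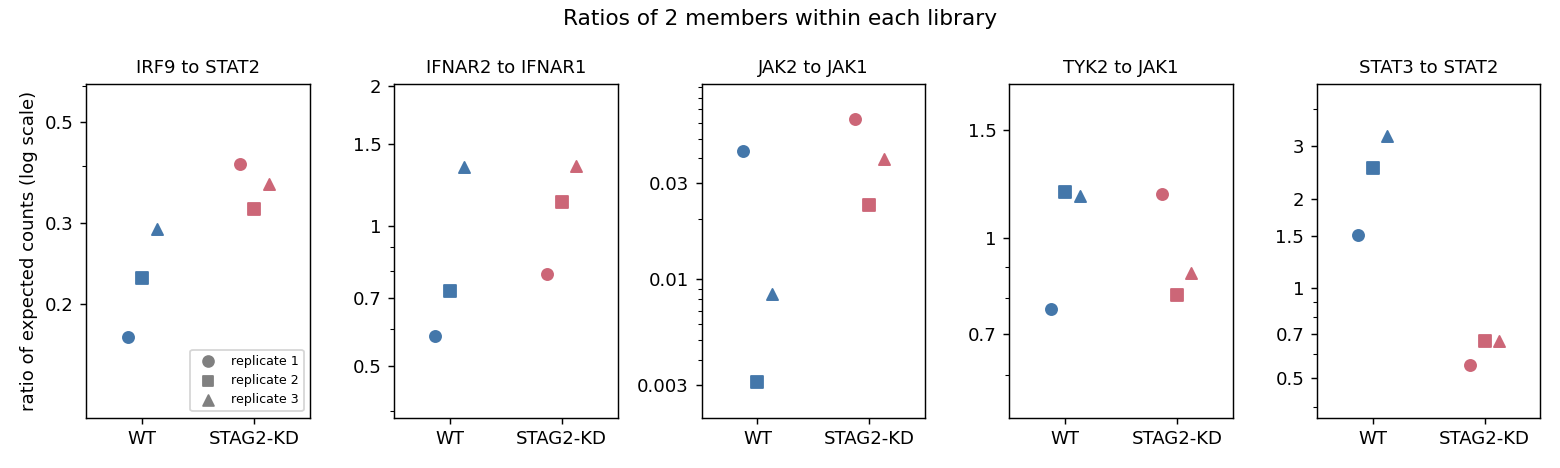
Ratio of the expected counts of 2 members in each library (y axes, log scale), WT in blue and STAG2-KD in red, with a symbol for each replicate number. IRF9 to STAT2 is higher and STAT3 to STAT2 lower in all 3 STAG2-KD libraries, and the other ratios overlap. The IRF9 counts leave out the read-through gene ENSG00000259529, and with it added the IRF9 to STAT2 groups overlap.

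Genes around the chain were read from lists. Of 21 interferon ligand genes, 18 were at 0 in every library, among them all 17 type I genes and IFNG. The 3 interferon lambda genes, whose receptor also signals through JAK1 and TYK2, were at 0 in WT. IFNLR1, the chain that pairs with IL10RB in that receptor, was scarce, at 1.19 ± 0.480 CPM in WT and 0.851 ± 0.0840 CPM in STAG2-KD (SD, n = 3). Its log2 difference was −0.49 (adjusted p = 0.889 from edgeR). IFNL1 was at 6.19, 8.86 and 10.6 CPM in STAG2-KD (adjusted p = 0.00110 from edgeR). Its STAG2-KD mean was 83.4 times the mean WT floor of 3 counts per library, and it passed the filter only through its STAG2-KD level. IFNL2 was at 2.93, 0 and 0.367 CPM and IFNL3 at 0, 0.338 and 0 CPM in STAG2-KD.

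Of the 5 other JAK and STAT genes, STAT4 was at 0 in every library and none of the 4 tested passed in the edgeR fit without the replicate block, with a median log2 fold change of 0.37. The DESeq2 Wald test and edgeR with no filter each called 1 higher. JAK3, the kinase of the common gamma chain receptors, was at 3.69, 5.19 and 2.04 CPM in WT and 10.2, 15.4 and 11.05 CPM in STAG2-KD, without overlap. The log2 difference was 1.74 (SE 0.42, edgeR adjusted p = 0.0690), and 1.81 with the replicate block (edgeR adjusted p = 0.00915). STAT6, the STAT of interleukin-4 signalling, was at 166, 251.7 and 228 CPM in WT and 252.6, 326 and 341 CPM in STAG2-KD. The log2 difference was 0.51 (edgeR adjusted p = 0.324), and 0.52 with the replicate block (edgeR adjusted p = 0.0422). With the block, 5.10% of all tested genes were called higher and 4.42% lower, so that 2 of these 4 genes were called.

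Among 20 other chains of receptors that signal through JAK kinases, 17 were tested. None was called in the edgeR fit without the block, where 1.75% of all tested genes were called higher and 0.839% lower. Of the 17, 9 were above 0, and the median log2 fold change was 0.03. Other settings without the block called 1 or 2 lower, and the DESeq2 Wald test also called 1 higher. IL6ST (gp130), the shared signal chain of the interleukin-6 family through which STAT3 is activated, was at 87.4, 53.6 and 51.4 CPM in WT and 35.04, 24.94 and 25.002 CPM in STAG2-KD. Every STAG2-KD library was below every WT library, with a log2 difference of −1.18 (SE 0.27, edgeR adjusted p = 0.0528) and of −1.15 with the block (edgeR adjusted p = 0.00214). IL6R, the interleukin-6 binding chain, was at 59.7, 34.0 and 22.9 CPM in WT and 12.8, 21.1 and 17.5 CPM in STAG2-KD (log2 difference −1.18, edgeR adjusted p = 0.142, and 0.0615 with the block).

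IL10RA, the interleukin-10 binding chain, was at 0 in WT and at 1.12, 1.39 and 0.765 CPM in STAG2-KD (adjusted p = 0.101 from edgeR). Its STAG2-KD mean was 10.6 times the mean WT floor. It passed the filter only through its STAG2-KD level, and it is among the 9 of 17 tested chains above 0. EPOR, the erythropoietin receptor that signals through JAK2, averaged 15.6 ± 1.57 CPM in WT against 23.6 ± 3.54 CPM in STAG2-KD (SD, n = 3, with a log2 difference of 0.60 and an edgeR adjusted p of 0.285).

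Of 15 inhibitors of the pathway, all tested, 1 was called higher and 0 lower in the edgeR fit without the block. In that fit 1.75% of all tested genes were called higher and 0.839% lower. With no filter, 1 of the 15 was called lower. The median difference of the 15 was 0.11 on the log2 scale. The gene called was USP18, which displaces JAK1 from IFNAR2 and removes ISG15 from proteins, at 4.06, 7.22 and 7.14 CPM in WT and 129, 108.6 and 151 CPM in STAG2-KD (21.1-fold in the fit, edgeR adjusted p = 5.21e-05). USP18 is also in the list of ISGF3 targets below. The suppressors of cytokine signalling SOCS1 and SOCS3 differed by −0.19 and −0.78 on the log2 scale (edgeR adjusted p = 0.903 and 0.569). PTPN11 (SHP2), a phosphatase of receptor complexes, averaged 136 ± 49.3 CPM in WT against 77.5 ± 8.86 CPM in STAG2-KD (SD, n = 3), a log2 difference of −0.81 (edgeR adjusted p = 0.170, and 0.0222 with the block). SH2B3 (LNK), an adaptor that restrains JAK2, differed by 0.73 (edgeR adjusted p = 0.295, and 0.00930 with the block). PTPN1, a phosphatase of JAK2 and TYK2, by 0.46 on the same scale (edgeR adjusted p = 0.361, and 0.0750 with the block).

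All 30 genes of a list of ISGF3 targets were called higher in STAG2-KD, where 1.75% of all tested genes were. The log2 fold changes of the 30 were 1.45 (ADAR) or more, with a median of 4.02. RSAD2, IFI44L and IFI27 passed the filter only through their STAG2-KD levels, so the filter set their direction. The count was 28 with limma-voom, and 29 without WT replicate 3, STAG2-KD replicate 2 or STAG2-KD replicate 3. It was 27 with at least 10 counts asked for in every library, a filter that left RSAD2, IFI44L and IFI27 untested. RSAD2, at 1, 1 and 0 expected counts in the WT libraries, lay under the floor of 3 counts there, so no fold is given for it. The genes with the smallest p-values were IFI6, OAS1, CMPK2 and DHX58. IFI6, an interferon-induced mitochondrial protein, was at 72.5, 74.1 and 74.9 CPM in WT and 5322, 3078 and 5164 CPM in STAG2-KD. OAS1, a sensor of double-stranded RNA, was at 19.6, 24.8 and 27.2 CPM in WT and 449, 502 and 574 CPM in STAG2-KD. CMPK2, a mitochondrial nucleotide kinase, rose from 0.860 ± 0.179 to 100.1 ± 33.6 CPM, and DHX58 (LGP2), a RIG-I-like receptor, from 14.1 ± 0.415 to 175 ± 18.9 CPM (SD, n = 3 in each group). The 30 genes summed to between 808 and 1028 CPM in WT and between 10226 and 13946 CPM in STAG2-KD.

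The list of 8 genes linked to STAT3 activity had no common direction, with 4 genes above 0 and a median log2 fold change of −0.29. VEGFA, the vascular growth factor, was the gene called in the edgeR fit without the block, at 92.6, 91.8 and 105.9 CPM in WT and 172, 273 and 252 CPM in STAG2-KD (log2 difference 1.27, edgeR adjusted p = 0.0166). In that fit 1.75% of all tested genes were called higher and 0.839% lower. No gene of this list was called higher when WT replicate 2 or 3 or STAG2-KD replicate 2 or 3 was left out. The DESeq2 Wald test called 2 genes of the list higher and 1 lower, and limma-voom, edgeR with no filter, edgeR with at least 10 counts in every library and edgeR without WT replicate 1 each called 1 lower. Without both libraries numbered 1, 2 were called lower. CEBPD, an acute-phase transcription factor, was at 13.7, 12.9 and 17.8 CPM in WT and 2.21, 5.85 and 4.99 CPM in STAG2-KD (log2 difference −1.77, edgeR adjusted p = 0.0586, and 0.00882 with the block). MCL1, a survival factor, differed by 0.68 on the log2 scale (edgeR adjusted p = 0.115, and 0.0194 with the block). JUNB, a subunit of AP-1, differed by 0.57 (edgeR adjusted p = 0.482, and 0.0540 with the block). SOCS3, which is also in the list of inhibitors, did not pass in either fit (adjusted p with the block 0.0614 from edgeR).

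**Figure D5:**
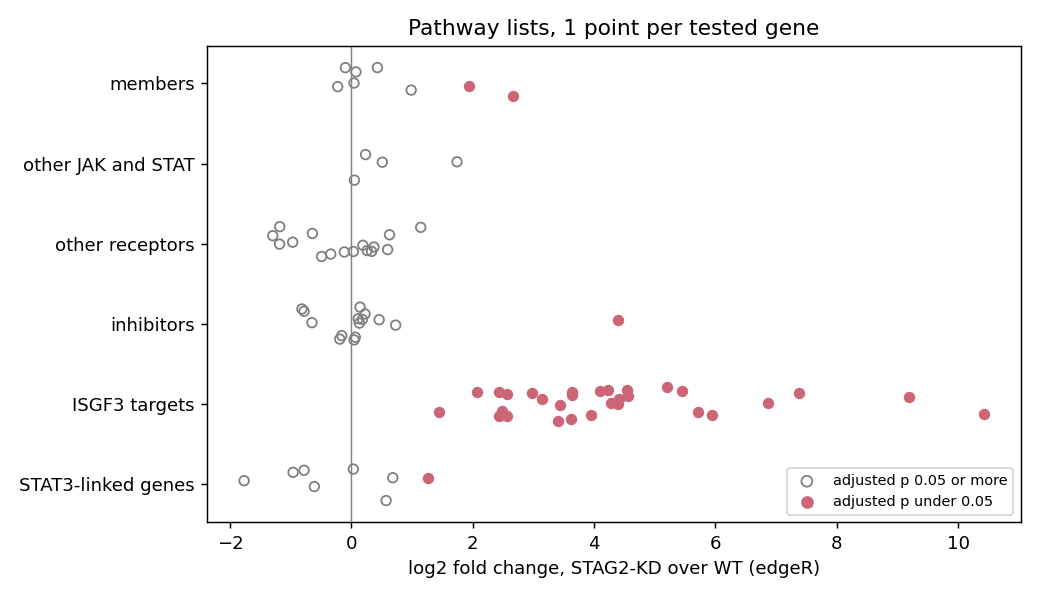
Log2 fold change of STAG2-KD over WT (x axis, edgeR) of each tested gene in 6 lists, filled where the adjusted p was under 0.05; IL10RA, at 0 in WT, is left out, and the point farthest right, RSAD2, is a fitted value with WT under the floor of 3 counts. All 30 ISGF3 targets are filled and lie at 1.45 or above, against 2 of 8 members, 1 of 15 inhibitors and 1 of 8 genes linked to STAT3. Of all tested genes, 1.75% were called higher and 0.839% lower. RSAD2, IFI44L and IFI27 passed the filter only through their STAG2-KD levels. The filled inhibitor, USP18, is also among the ISGF3 targets.

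The profiles most like that of IRF9 were found as the smallest root mean square difference of log2(CPM + 1), centred on each gene's mean, over the 6 libraries, among tested genes with a mean of at least 1 CPM. In order these were HSH2D with 0.119, MX1 with 0.200, ZNFX1 with 0.217, IFI35 with 0.219 and SMPDL3B with 0.246. MX1, an antiviral GTPase, averaged 2.59 ± 0.0908 CPM in WT against 27.4 ± 2.84 CPM in STAG2-KD, and IFI35, an interferon-induced protein, at 71.3 ± 7.69 and 422 ± 98.1 CPM (SD, n = 3). ZNFX1, an RNA helicase, averaged 61.3 ± 10.1 CPM in WT against 340 ± 69.6 CPM in STAG2-KD. HSH2D was at 0 in WT and at 4.82 ± 0.819 CPM in STAG2-KD, and SMPDL3B at 0.687 ± 0.248 and 9.02 ± 2.34 CPM (SD, n = 3), so their likeness depends on the added 1. STAT2 stood at place 45 in this order with a difference of 0.405, and the next member was JAK2 at place 1819. With 6 libraries in 2 groups the measure mainly ranks the size of the change and says nothing of shared control.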

How the data were processed

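Directional libraries of polyadenylated M14 RNA were sequenced with single reads of 50 bases. Alignment by the authors used STAR 2.7.0f on hg19, and the deposited values are the expected counts of RSEM 1.3.0 for each gene, without scaling. A read that fits several genes is shared out among them by RSEM. The 3 libraries of each group are described as biologically independent.

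Counts were rounded, filtered by filterByExpr (15605 genes), scaled by TMM and compared with the quasi-likelihood test of edgeR 4.0.16 in R 4.3.3, with p-values adjusted over every tested gene (Benjamini-Hochberg) and no replicate block, since the methods name no pairing. Calls used an adjusted p under 0.05. Deviations from the group mean correlated between same-numbered libraries (r = 0.472, 0.321 and 0.269 across 13535 genes, which are not independent replicates). Replicates 2 and 3 of opposite groups also correlated (r = 0.167 and 0.134), while replicate 1 against a differently numbered library gave −0.363 to −0.293. Whether the numbers share more than a contrast of replicate 1 with the others was not tested. Values from an edgeR fit with the replicate block are given where a call changed. Alternatives used DESeq2 1.42.0, limma-voom (limma 3.58.1), other scalings and filters, unrounded counts, a threshold of 0.01 and leaving out libraries. Pair differences used CPM + 0.1. Positions and lengths are from GENCODE v44lift37 (GRCh37, the build of hg19), and promoter windows from RefSeq (GRCh38.p14).

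The members and lists were chosen with earlier results of these data known. Named genes are the members, the 4 genes of each list with the smallest p, overlapping genes that share exons, and the 5 profiles most like IRF9. SOCS1, SOCS3, IL10RB, IFNGR2, IFNLR1, IFNL2, IFNL3, ADAR, RSAD2, IFI44L and IFI27 were named outside that rule, after their values were seen. A floor of 3 counts covers counting error only, as no molecular identifiers are named.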

Additional observations from a re-analysis of the deposited data

How the results depend on the processing

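The count of 2 members called higher and 0 lower held under every alternative run, and the log2 fold change of IRF9 stayed between 2.39 and 2.71 and that of STAT2 between 1.76 and 2.18. No other member passed in any alternative, and IFNAR2, JAK2 and TYK2 kept their direction. With single libraries left out, STAT3 ranged from −0.058 to 0.22, IFNAR1 from −0.11 to 0.28 and JAK1 from −0.16 to −0.02. The direction of these 3 members turned in places. STAT3 was at −0.058 without WT replicate 1 and −0.03 without STAG2-KD replicate 2. IFNAR1 was at −0.03 and −0.11 without WT replicates 2 and 3, and −0.06 and −0.0073 without STAG2-KD replicates 1 and 3. JAK1 was at 0.040 without both libraries numbered 1, where the ratio of TYK2 to JAK1 moved from −0.12 to −0.48 on the log2 scale. Over single left-out libraries that ratio ranged from −0.32 to −0.0050.

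The count over all genes moved much more, from 404 genes (273 higher, 131 lower) to 1486 with the replicate block (796 and 690), 1103 with no filter (573 and 530), 979 with the DESeq2 Wald test (547 and 432) and 137 at an adjusted p under 0.01 (116 and 21). It was 757 without both libraries numbered 1 (461 and 296). Leaving out 1 library gave 121 to 531 genes (106 to 340 higher, 15 to 191 lower). The cause was not tested. The replicate block changed no call of a member, and its changed calls in the lists are given above. Calls in the lists moved without the block too. Of the other receptor chains, none of them called above, 2 were lower with the DESeq2 Wald test or no filter, 1 with DESeq2 size factors, limma-voom, at least 10 counts in every library or without both libraries numbered 1, and 1 was higher with the DESeq2 Wald test. The changed counts of the other lists stand beside them above. JAK2, with 10 to 165 counts a library, had the fewest of the members.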
